A study of Mus musculus with 24 samples.

Results

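Interleukin-2 (Il2), interleukin-21 (Il21), the chains of their receptors and the transcription factors STAT5A and STAT5B were followed on 24 arrays of mouse CD4+ T cells. All probe sets that carry only 1 gene symbol, and whose symbol is Il2, Il21, Il2ra, Il2rb, Il2rg, Il21r, Stat5a or Stat5b, were taken, whatever their values. The array has 12 such probe sets among 45101, and they stand for 7 of the 8 genes; Il2rg, the gene of the common gamma chain, was not analysed here. Il2 and Il21r have 1 probe set each and the other 5 genes have 2 each.

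T cells secrete IL-2 after their antigen receptor is engaged, and IL-2 acts back on the same or neighbouring T cells as a growth and survival factor. The high-affinity IL-2 receptor consists of an alpha chain (Il2ra, CD25), which raises affinity but does not signal, a beta chain (Il2rb, CD122) and the common gamma chain. The IL-21 receptor pairs its own chain (Il21r) with the same common gamma chain. IL-2 signals through the kinases JAK1 and JAK3 mainly to STAT5A and STAT5B, a closely related pair of transcription factors, whereas IL-21 signals mainly to STAT3. IL-21 is best known as a product of follicular helper and Th17 cells that acts on B cells, but other activated CD4+ T cells make it too.

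The CD4+ T cells came from mice on the C57BL/6 background that carry the 2D2 T cell receptor transgene, so most of them share 1 antigen specificity; the sources used here state neither the age nor the sex of the mice. All cells were first activated under Th1 conditions on plate-bound antibodies to CD3 and CD28, taken off the plates after 48 hours and expanded for 2 more days. They were grown with 0.5 µM I-BET-762, 0.25 µM I-BET-762, Control-768 or the solvent DMSO. I-BET-762 blocks the acetyl-lysine binding pockets of BET proteins, whereas Control-768 is the compound labelled as a control; the sources used here give neither its concentration nor whether the compounds stayed on during restimulation. For each compound there were 3 biological replicates of activated cells, restimulated for 4 hours with the same antibodies, and 3 of resting cells, taken without restimulation, which makes 8 groups of 3 arrays.

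The authors deposited 1 linear intensity for each probe set and array, and array medians lay between 37.4 and 44.4. The labelled cell type was checked against marker genes. Of 8 markers listed for CD4 T cells, 7 were measured, and their summed intensity was 30500 to 43110 over the 24 arrays. Most of that sum came from Cd3d, Cd3e, Cd3g, Thy1, Cd28 and Cd2. These are general T cell genes, so the sum does not separate CD4 from CD8 T cells. Cd4 itself was at 364 to 1142.5, with a median of 635. The 2 CD8 markers summed to 412 to 957, mostly from Cd8b1 (median 533), with a median of 78.7 for Cd8a. Summed markers of B cells (3 measured) were at 35.4 to 73.2, of natural killer cells (3 measured) at 35.2 to 125, of myeloid cells (5 measured) at 160 to 247 and of dendritic cells (4 measured) at 102 to 379. In bulk RNA, fewer cells that express a gene and less RNA of it per cell cannot be told apart.

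Differences were fitted with limma over all 45037 probe sets that are not array controls, on log2(intensity + 16), and a probe set was called where its Benjamini-Hochberg adjusted p over all of them was under 0.05 (two-sided). Each difference is given with its standard error. Because 16 was added, a difference understates the change of dim probe sets. Within each cell state, arrays that carry the same replicate number deviated together, so the adjusted p with replicate number as a block within each state is printed where it changed a call. Values of different probe sets are not compared with each other in level.

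Il2 and Il21 lie next to each other on chromosome 3, with 0 protein-coding genes between them in the RefSeq annotation. Their promoter windows are shown because both genes moved with restimulation; each is the 250 bases before the RefSeq transcription start (build GRCm38.p6), on the gene's strand, with the core of NFAT sites in capitals (GGAAA, or TTTCC where it lies on the other strand). NFAT is the calcium-dependent factor that antigen receptor signals bring to the nucleus.
Il2, chr3:37125955-37126204, minus strand: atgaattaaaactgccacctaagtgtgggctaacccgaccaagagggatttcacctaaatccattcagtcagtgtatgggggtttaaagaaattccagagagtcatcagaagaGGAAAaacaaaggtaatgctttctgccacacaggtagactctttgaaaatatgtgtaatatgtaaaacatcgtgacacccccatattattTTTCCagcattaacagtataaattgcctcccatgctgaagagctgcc
Il21, chr3:37232637-37232886, minus strand: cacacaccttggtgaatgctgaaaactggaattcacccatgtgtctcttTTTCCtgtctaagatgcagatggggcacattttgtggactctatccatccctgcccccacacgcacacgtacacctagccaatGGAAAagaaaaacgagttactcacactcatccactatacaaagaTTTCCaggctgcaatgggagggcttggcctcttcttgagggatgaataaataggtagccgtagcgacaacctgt
The Il2 window holds 2 matches and the Il21 window 3. Of 32851 mouse promoter windows of the same length, 55.6% hold at least 1 match, so a single match is common. Windows with 3 or more matches make up 6.39%, and the share with 2 or more is not given here. The AP-1 motif TGANTCA occurs in 6.75% of all windows and the STAT motif TTCNNNGAA in 7.02%; both motifs were searched on both strands, neither overlaps the NFAT core in these windows, and neither was found in the windows of Il2 and Il21. These matches describe letters in a short window and say nothing about which factors bind.

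Restimulation raised Il2 with every compound. With 0.5 µM I-BET-762, Il2 stood at 4154, 5318 and 16368 on the activated arrays numbered 1, 2 and 3, against 24.9, 7.43 and 20.5 on the resting arrays. With 0.25 µM I-BET-762 it stood at 4377, 3140 and 13361 in activated cells, against 23.8, 19.3 and 34.8 in resting cells. The gap between the states was far wider than the spread within either. With Control-768 the values were 2490, 5343 and 14512 in activated cells and 16.7, 19.8 and 13.1 in resting cells. With DMSO they were 6647, 3893 and 15270.1 in activated cells and 28.9, 26.9 and 13.8 in resting cells.

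The difference for Il2 was 7.77 ± 0.60 log2 with 0.5 µM I-BET-762 (limma adjusted p = 3.13e-07), 7.10 ± 0.60 with 0.25 µM I-BET-762, 7.48 ± 0.60 with Control-768 and 7.58 ± 0.60 with DMSO, all 4 called. Resting Il2 lay between the 14.6th and the 47.7th percentile of all probe sets of its array, near the dim end of the scale, so the size of the difference depends on the added constant: with Control-768 it was 8.39 with a constant of 1 and 6.19 with a constant of 64. The arrays numbered 3 stood apart within the activated cells. Their Il2 intensities were 13361 to 16368, above the range of 2490 to 6647 on the activated arrays numbered 1 and 2, whichever compound the cells had received. The resting arrays numbered 3 did not stand apart for Il2, with 13.1 to 34.8 against 7.43 to 28.9 on the other resting arrays.

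**Figure D1:**
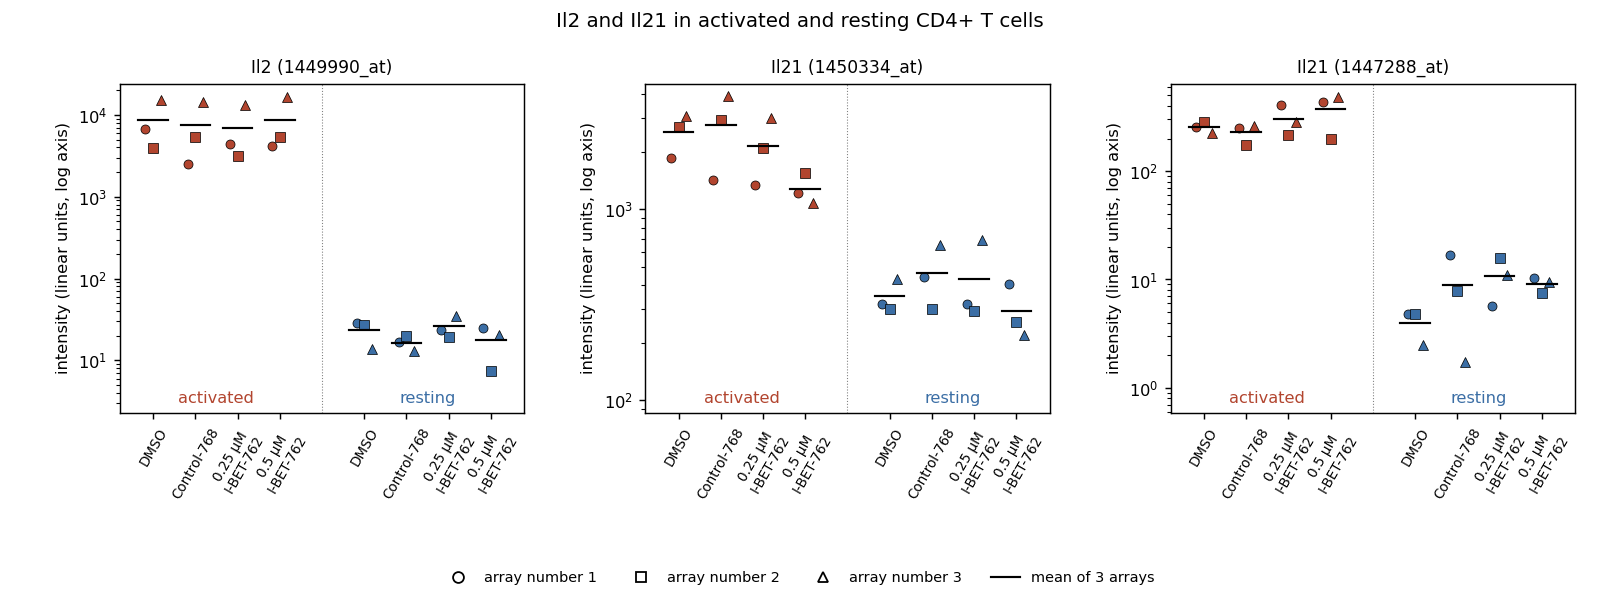
Intensity of Il2 and of both Il21 probe sets on each array (vertical log axis, linear intensity units), activated groups on the left and resting groups on the right of each panel; point shapes give the array number and bars the mean of 3 arrays. Activated Il2 lies between 2490 and 16368 and resting Il2 between 7.43 and 34.8, and with 0.5 µM I-BET-762 the brighter Il21 probe set (1450334_at) averages 1280 in activated cells while the dimmer one (1447288_at) averages 371.

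Il21 also rose with restimulation, at both of its probe sets and with every compound. At the brighter probe set, 1450334_at, it stood at 1222, 1542 and 1076 in activated cells grown with 0.5 µM I-BET-762 and at 405, 258 and 219 in the resting cells. With 0.25 µM I-BET-762 it stood at 1343, 2089 and 3004 in activated cells and at 319, 295 and 690 in resting cells. With Control-768 it stood at 1427, 2954 and 3940 in activated cells and at 444, 299.9 and 655 in resting cells. Activated arrays lay above all resting arrays in each of these pairs. With DMSO it stood at 1849, 2701 and 3087 in activated cells and at 321, 300.4 and 432 in resting cells. The difference was 2.09 ± 0.38 with 0.5 µM I-BET-762 (limma adjusted p = 0.000725), 2.29 ± 0.38 with 0.25 µM I-BET-762, 2.48 ± 0.38 with Control-768 and 2.79 ± 0.38 with DMSO. At 1447288_at, which was dim in resting cells (1.72 to 16.9), the same differences were 3.86, 3.54, 3.32 and 3.75, each ± 0.28, and all were called.

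Of the receptor chains, Il2ra rose with restimulation and Il21r did not pass the test. At the Il2ra probe set 1420691_at it stood at 4885, 4689.5 and 5434 in activated cells grown with 0.5 µM I-BET-762 and at 2283, 2402 and 1461 in the resting cells, and with Control-768 at 4645, 4524 and 4079 in activated cells and at 1915, 1931 and 1519 in resting cells. Activated cells averaged 5003 ± 386 and resting cells 2049 ± 512 with 0.5 µM I-BET-762 (SD, n = 3 each), a difference of 1.31 ± 0.16 (limma adjusted p = 2.32e-05). The difference was 1.10 ± 0.16 with 0.25 µM I-BET-762, 1.30 ± 0.16 with Control-768 and 1.29 ± 0.16 with DMSO, all called. At the brighter probe set, 1420692_at, activated arrays lay above resting arrays with every compound and the differences were 0.99 to 1.14, but none was called (limma adjusted p = 0.0705 to 0.129). The resting arrays numbered 3 were low there, at 1343 to 1617 against 3374 to 4056 on resting arrays numbered 1 and 2. Without the arrays numbered 3, the 4 differences at this probe set were 0.71 to 0.76 and all were called (limma adjusted p = 0.000962 to 0.00221).

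Il2rb was called higher in activated cells with Control-768 and with DMSO. In cells grown with Control-768 it stood at 1901, 2137 and 1514 on activated arrays and at 1238, 1325 and 1081 on resting arrays, a difference of 0.59 ± 0.20 (limma adjusted p = 0.0497). With DMSO it stood at 1847, 2063 and 1478 on activated arrays and at 1226, 1260 and 993 on resting arrays, a difference of 0.62 ± 0.20 (limma adjusted p = 0.0386). Activated and resting arrays did not overlap in either case, but both calls sit at the edge of the threshold: leaving out any 1 of 5 arrays (activated replicates 1 and 2 and resting replicates 1, 2 and 3) ended the call with each compound, with limma adjusted p of 0.0563 to 0.144 for DMSO and 0.0678 to 0.18 for Control-768. With I-BET-762 the states overlapped: the difference was -0.41 ± 0.20 at 0.5 µM (limma adjusted p = 0.183) and 0.25 ± 0.20 at 0.25 µM (limma adjusted p = 0.505). Il21r was 0.20 ± 0.19 higher in activated cells with 0.5 µM I-BET-762, 0.40 ± 0.19 with 0.25 µM, 0.35 ± 0.19 with Control-768 and 0.48 ± 0.19 with DMSO, and none of these was called (limma adjusted p = 0.0931 to 0.54).

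Stat5a rose strongly with restimulation and Stat5b rose less. With 0.5 µM I-BET-762, Stat5a (1421469_a_at) stood at 5410, 4977 and 7741 in activated cells, against 613, 669 and 1328 in resting cells. With Control-768 it stood at 5392, 4270 and 6239 in activated cells, against 677, 622 and 806 in resting cells. With 0.25 µM I-BET-762 it stood at 5302, 3789.7 and 5919 in activated cells, against 667, 705 and 853 in resting cells. With every compound the lowest activated array lay above the highest resting array. Resting 0.5 µM array number 3 was the highest resting array here, as it was for Il2rb and Stat5b. The difference was 2.84 ± 0.26 with 0.5 µM I-BET-762 (limma adjusted p = 1.92e-06), 2.71 ± 0.26 with 0.25 µM I-BET-762, 2.88 ± 0.26 with Control-768 and 2.81 ± 0.26 with DMSO. Its other probe set, 1450259_a_at, gave 3.12 to 3.32, all called.

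Stat5b lies next to Stat5a on chromosome 11, with 0 protein-coding genes between them in the RefSeq annotation. At its brighter probe set, 1422103_a_at, it stood at 3434, 3334 and 4166 in activated cells and 1998, 1911 and 3210 in resting cells with 0.5 µM I-BET-762, a difference of 0.65 ± 0.16 (limma adjusted p = 0.00769). With Control-768 it stood at 3616, 3076 and 3485 in activated cells and 2393, 2054 and 2049 in resting cells, a difference of 0.64 ± 0.16 (limma adjusted p = 0.0103). Activated arrays lay above resting arrays in both comparisons. With 0.25 µM I-BET-762 it stood at 3444, 2899.8 and 3283 in activated cells and 1984, 2065 and 1966 in resting cells, and with DMSO at 3382, 3095 and 3527 in activated cells and 2482, 2275 and 1841 in resting cells. The difference was 0.67 ± 0.16 with 0.25 µM I-BET-762 and 0.61 ± 0.16 with DMSO, both called. Single arrays ended some of these calls: without activated replicate 3 or resting replicate 2 the 0.5 µM difference had limma adjusted p of 0.0552 and 0.0503, without activated replicate 1 the 0.25 µM difference had 0.0559, and without activated or resting replicate 3 the DMSO difference had 0.061 and 0.078. The dimmer probe set, 1422102_a_at, gave 0.74 to 0.95 and was called with 0.5 µM I-BET-762 and with DMSO. Without activated replicate 3 its 0.5 µM difference was 0.60 (limma adjusted p = 0.279) in place of 0.90 ± 0.30, and that call was also lost without activated replicate 1 or resting replicates 1 or 2 (limma adjusted p = 0.0797 to 0.178); the DMSO call of 0.95 ± 0.30 was lost without activated replicates 1 or 3 or resting replicates 1 or 2 (limma adjusted p = 0.0907 to 0.196).

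Counted over the 12 probe sets, 8 were called higher in activated cells with 0.5 µM I-BET-762, 7 with 0.25 µM, 8 with Control-768 and 9 with DMSO, and 0 were called lower. Of all probe sets, 9.91%, 6.05%, 7.8% and 8.57% were called higher in the same comparisons, and 17.8%, 10.5%, 14.8% and 15.8% were called in either direction. All activated arrays lay above all resting arrays at 8, 9, 11 and 12 of the 12, beside 15.8%, 16.5%, 17.4% and 18.2% of all probe sets. The median difference of the 12 was 1.23, 1.09, 1.16 and 1.14, beside a median of 0.01 over all probe sets in each case. Summed dendritic cell markers were also higher in activated cells, 174 to 379 against 102 to 214 in resting cells, with 1 of 4 called higher with each compound. Summed CD8 markers were 530 to 957 in activated cells and 412 to 632 in resting cells, with 0 of 2 called. The summed markers listed for CD4 T cells, mostly general T cell genes, were 30500 to 37177 in activated and 34358 to 43110 in resting cells. Of these markers, 1 of 7 was called lower with Control-768 and 2 of 7 with each of the other compounds. The part of these cell types in the restimulation results was not tested.

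**Figure D2:**
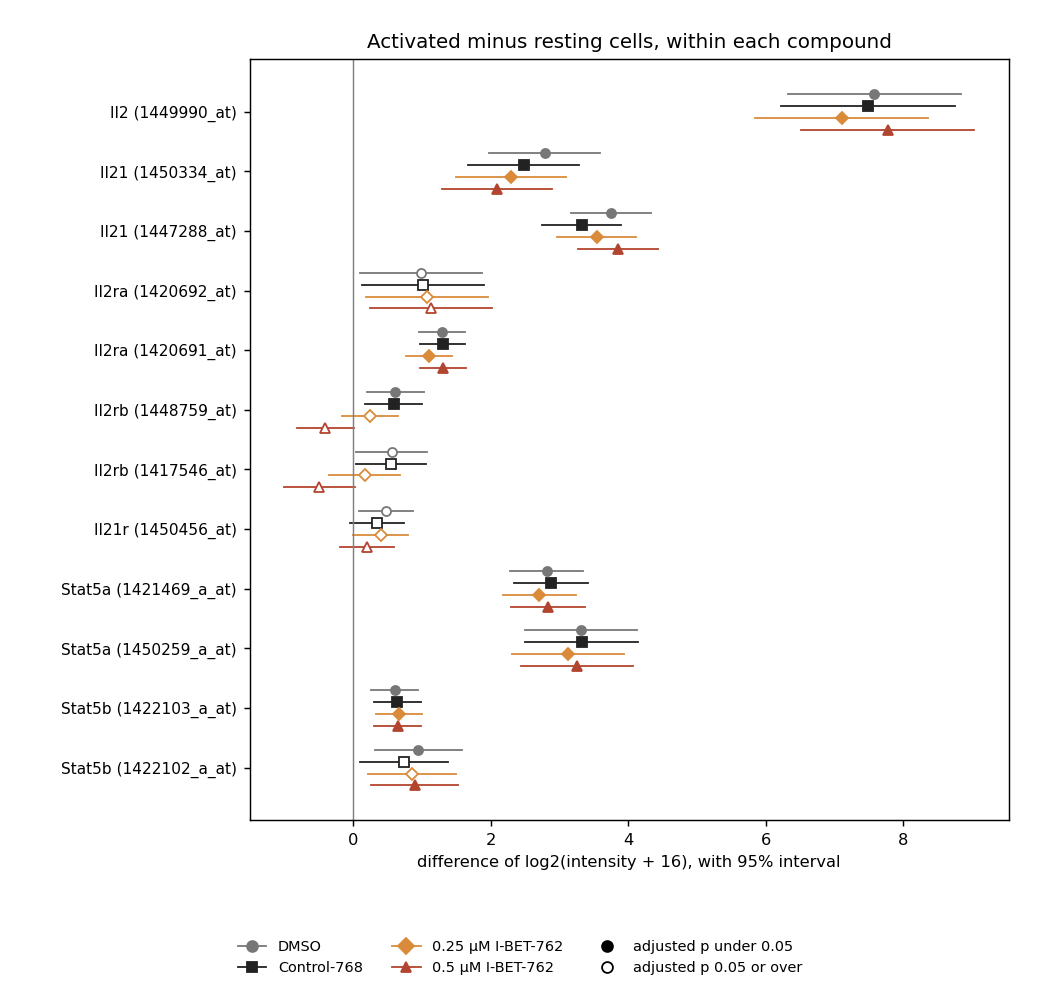
Differences between activated and resting cells within each compound for the 12 probe sets (horizontal axis, difference of log2(intensity + 16)), with 95% intervals; filled points passed the adjusted p of 0.05. Il2 differs by 7.10 to 7.77 and Stat5a by 2.71 to 3.32, while Il2rb lies at 0.59 with Control-768 and -0.41 with 0.5 µM I-BET-762.

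With I-BET-762 set against Control-768 at the same cell state, Il21r had higher values in both states and Il2rb in resting cells, while Il2 had no detectable difference and Il21 gave opposite signs at its probe sets. None of the 12 probe sets was called at a single dose in the fit without the block. The shares of all probe sets called were small too: 0.424% at 0.5 µM and 0.0355% at 0.25 µM in activated cells, and 0.753% and 0.04% in resting cells. Without adjustment, 3 of the 12 probe sets had p under 0.05 at 0.5 µM in activated cells and 3 in resting cells, beside 6.85% and 8.78% of all probe sets, and 1 in each state at 0.25 µM, beside 3.55% in activated and 3.71% in resting cells.

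Il21r, the chain that makes a receptor specific for IL-21, was higher with I-BET-762 in both states. In activated cells it stood at 1582, 1327 and 1195 with 0.5 µM I-BET-762, at 1372, 1208 and 1285 with 0.25 µM, at 1115, 871 and 763 with Control-768 and at 1059, 959 and 854 with DMSO. All 6 activated I-BET-762 arrays lay above all 6 activated control arrays, as did 0.555% of all probe sets. In resting cells it stood at 1487, 1101 and 996 with 0.5 µM I-BET-762, at 1299.9, 855 and 822 with 0.25 µM, at 843, 661 and 638 with Control-768 and at 773, 665 and 606 with DMSO. There the lowest I-BET-762 array (822) lay below the highest Control-768 array (843). The arrays numbered 1 were the highest of each group in both states, and at each array number both doses were above Control-768.

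Against Control-768, Il21r differed by 0.72 ± 0.19 at 0.5 µM in resting cells, a ratio of 1.65 on this scale (limma adjusted p = 0.0992; 0.000354 with the block). At 0.25 µM in resting cells the difference was 0.45 ± 0.19 (limma adjusted p = 1.0; 0.0922 with the block). In activated cells it was 0.58 ± 0.19 at 0.5 µM (limma adjusted p = 0.353; 0.00366 with the block, under which 1.81% of all probe sets were called) and 0.50 ± 0.19 at 0.25 µM (limma adjusted p = 1.0; 0.0501 with the block). With both doses set against both controls, Il21r was called in resting cells, where it was 0.61 ± 0.13 higher (limma adjusted p = 0.0261; 4.96e-05 with the block), and it was the only member called there in this fit; of all probe sets, 0.999% were called in either direction and 0.346% were called higher. In activated cells the same comparison gave 0.50 ± 0.13 (limma adjusted p = 0.121; 0.000482 with the block), with 0.626% of all probe sets called without the block and 2.3% with it. The call in resting cells did not survive the loss of any of 6 single arrays: 0.5 µM replicate 1, 0.25 µM replicate 1, and replicates 2 and 3 of both Control-768 and DMSO (limma adjusted p = 0.0668 to 0.0868, differences of 0.51 to 0.61). The interaction between state and dose was -0.14 ± 0.27 at 0.5 µM and 0.06 ± 0.27 at 0.25 µM, so no difference between the states was detected for Il21r (95% intervals -0.70 to 0.42 and -0.50 to 0.61).

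Il2rb, the chain that the IL-2 and IL-15 receptors share, was higher with 0.5 µM I-BET-762 in resting cells. It stood at 1787, 1678 and 2865 there, against 1238, 1325 and 1081 with Control-768; the 0.25 µM cells had 1469, 1410 and 1152 and the DMSO cells 1226, 1260 and 993. All 3 arrays of the 0.5 µM group lay above all other resting arrays (6.33% of all probe sets lay above Control-768 in this way), and array number 3 stood well above the other 2. The difference from Control-768 was 0.75 ± 0.20 (limma adjusted p = 0.101; 0.0249 with the block) and at the dimmer probe set, 1417546_at, 0.78 ± 0.25 (limma adjusted p = 0.225; 0.0304 with the block). With the block, 2.98% of all probe sets were called in this comparison. With the arrays numbered 3 left out the differences were 0.43 and 0.55 (limma adjusted p = 0.221 and 0.233).

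At 0.25 µM in resting cells Il2rb differed from Control-768 by 0.14 ± 0.20. With both doses against both controls it was 0.48 ± 0.14 higher in resting cells (limma adjusted p = 0.156; 0.0428 with the block, under which 3.08% of all probe sets were called). In activated cells Il2rb had 1483, 1918 and 1290 with 0.5 µM I-BET-762 and 1901, 2137 and 1514 with Control-768, a difference of -0.25 ± 0.20, and -0.20 ± 0.20 at 0.25 µM. The interaction between state and 0.5 µM was -0.997 ± 0.280 at the brighter probe set and -1.04 ± 0.35 at the dimmer one, but neither was called (limma adjusted p = 1.0), and 0% of all probe sets were. Natural killer cells express Il2rb at a high level. The summed markers of these cells were 125, 56.7 and 81.0 on the resting arrays with 0.5 µM I-BET-762, against 69.1, 62.8 and 82.2 with Control-768. Over all arrays these markers had medians of 16.3 for Ncr1, 44.5 for Klra8 and 9.2 for Fcer1g. Their maxima were 61.4, 96.0 and 16.9. The part of natural killer cells in the Il2rb values was not tested.

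**Figure D3:**
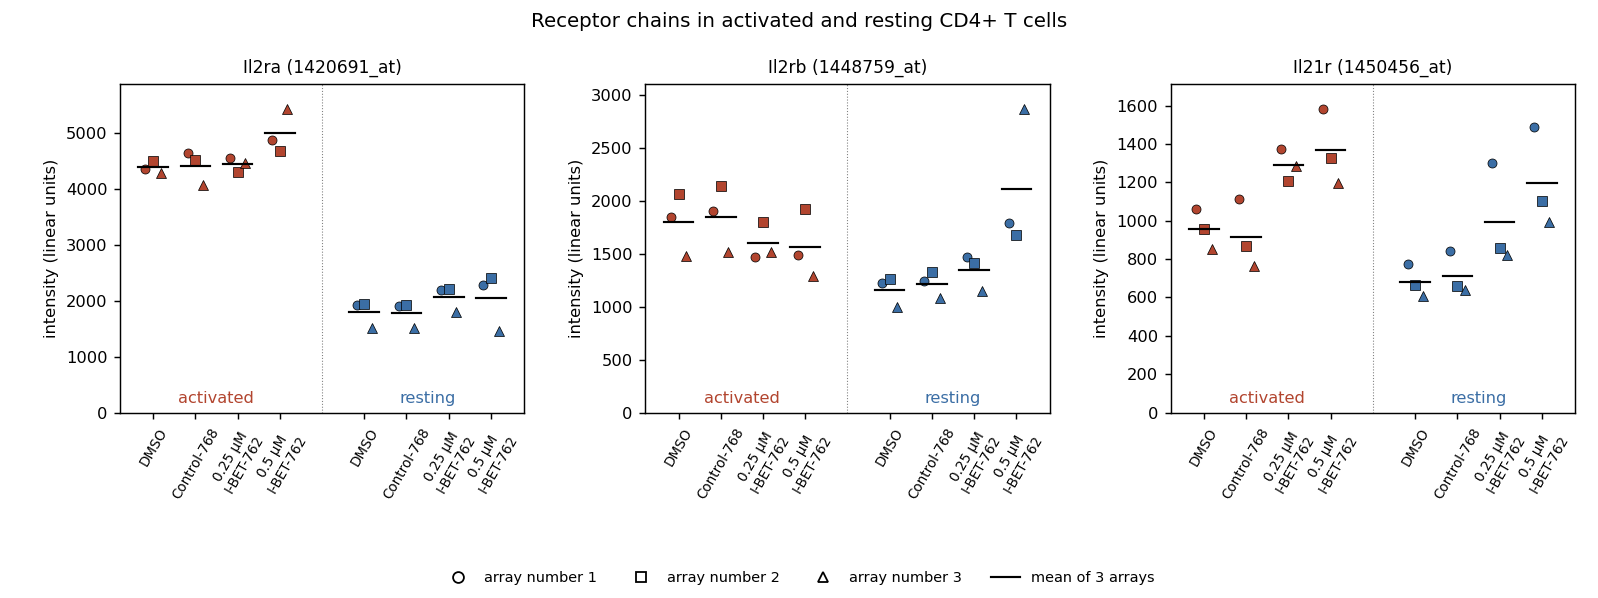
Intensity of Il2ra (1420691_at), Il2rb (1448759_at) and Il21r (1450456_at) on each array (vertical axis in linear intensity units from 0), activated groups on the left and resting groups on the right of each panel; point shapes give the array number and bars the mean of 3 arrays. All 6 activated I-BET-762 arrays lie above the activated control arrays for Il21r, and resting 0.5 µM array number 3 lies at 2865 for Il2rb.

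Il2ra, in contrast, differed from Control-768 by 0.18 ± 0.16 in activated and 0.17 ± 0.16 in resting cells at 0.5 µM (1420691_at; 95% intervals -0.15 to 0.51 and -0.16 to 0.50), and neither was called. In activated cells this probe set stood at 4885, 4690 and 5434 with 0.5 µM I-BET-762, against 4645, 4524 and 4079 with Control-768. These arrays did not overlap, as was the case for 6.09% of all probe sets in that direction. At the brighter probe set, 1420692_at, the arrays did overlap, with 6990, 6147 and 5471 against 6351, 6104 and 4728. Resting cells averaged 3123 ± 1542 with 0.5 µM and 2984 ± 1191 with Control-768 there (SD, n = 3 each).

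For the cytokine Il2, activated cells averaged 8613 ± 6741 with 0.5 µM I-BET-762, 6959 ± 5579 with 0.25 µM, 7448 ± 6282 with Control-768 and 8604 ± 5935 with DMSO (SD, n = 3 each). Most of that spread lay between array numbers and not between compounds. The difference from Control-768 was 0.30 ± 0.60 at 0.5 µM and -0.02 ± 0.60 at 0.25 µM. The 95% intervals were -0.96 to 1.56 and -1.28 to 1.24, so the fit without the block does not exclude changes within these ranges. Taken within array numbers 1, 2 and 3, the differences were 0.73, -0.007 and 0.17 log2 at 0.5 µM. At 0.25 µM they were 0.81, -0.76 and -0.12. With the block the adjusted p at 0.5 µM was 0.736.

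For Il21 the probe sets disagreed. In activated cells the brighter one, 1450334_at, averaged 1280 ± 238 with 0.5 µM I-BET-762 and 2774 ± 1266 with Control-768 (SD, n = 3 each), a difference of -1.003 ± 0.384 (limma adjusted p = 0.54). The dimmer one, 1447288_at, had 431, 198 and 484 with 0.5 µM I-BET-762, against 249, 173 and 262 with Control-768, a difference of 0.59 ± 0.28 (limma adjusted p = 0.713). Neither was called, with or without the block. At each array number the brighter probe set was lower with 0.5 µM I-BET-762 than with Control-768, with differences of -0.22, -0.93 and -1.86 log2 in numbers 1, 2 and 3, and the dimmer one was higher, with differences of 0.75, 0.17 and 0.85. Over the 24 arrays these probe sets correlated with Pearson's r = 0.86, which follows the restimulation, but r was -0.60 over the 12 activated arrays and -0.13 over the 12 resting arrays. For comparison, the 2 Stat5a probe sets had r = 0.96 over the activated and 0.93 over the resting arrays, and those of Il2rb 0.89 and 0.91. These values describe arrays that share replicate numbers and probe sets of the same gene. The direction of Il21 with I-BET-762 cannot be told from these probe sets.

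At 0.25 µM in activated cells the Il21 probe sets differed from Control-768 by -0.32 ± 0.38 (1450334_at) and 0.35 ± 0.28 (1447288_at), and in resting cells at 0.5 µM by -0.62 ± 0.38 and 0.06 ± 0.28. None was called. Within array numbers 1, 2 and 3 the resting differences at 1450334_at were -0.13, -0.21 and -1.51 log2, so most of that difference came from number 3. Stat5a differed from Control-768 by 0.18 ± 0.26 in activated and 0.22 ± 0.26 in resting cells at 0.5 µM, and Stat5b by 0.10 ± 0.16 and 0.09 ± 0.16 at their brighter probe sets, none called. The 0.5 µM dose against 0.25 µM called no member in either state (0.0111% of all probe sets in activated and 0.0422% in resting cells); Il2rb had the lowest unadjusted p there, with a difference of 0.61 ± 0.20 in resting cells (limma adjusted p = 0.692). Control-768 against DMSO called 0 probe sets of 45037 in either state, by limma with or without the block; 896 in activated and 1125 in resting cells had an unadjusted p under 0.05, 0 of them members. The member differences there were -0.34 to 0.34.

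**Figure D4:**
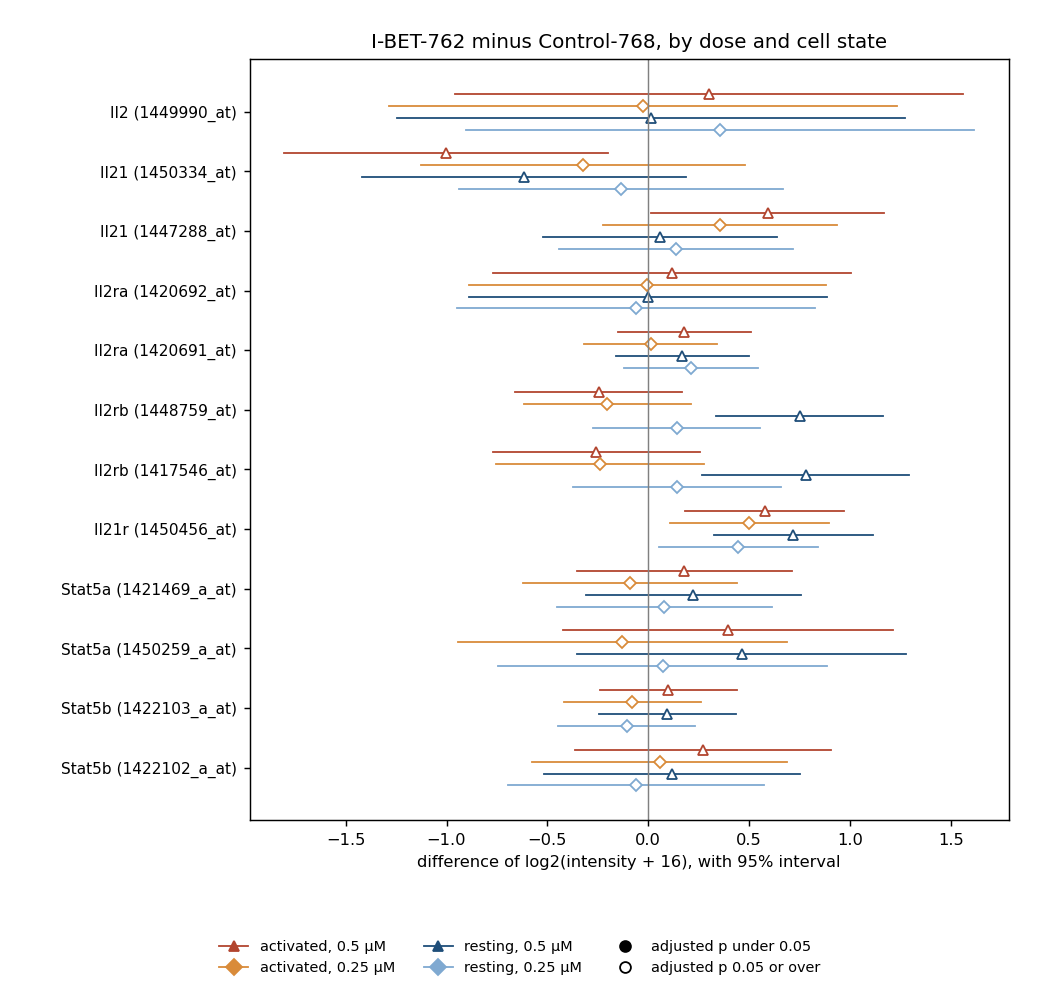
Differences between I-BET-762 and Control-768 for the 12 probe sets by dose and cell state (horizontal axis, difference of log2(intensity + 16)), with 95% intervals from the fit without the block; open points did not pass the adjusted p of 0.05. Il21r lies at 0.45 to 0.72 in all 4 comparisons, Il2rb lies at 0.75 in resting cells at 0.5 µM and -0.25 in activated cells, and the Il21 probe sets lie at -1.003 and 0.59 in activated cells at 0.5 µM.

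Ordered by mean log2 value over the 8 groups, Il2, Il21, Il2ra and Stat5a had all 4 activated groups above all 4 resting groups with no overlap of arrays between the lowest activated and the highest resting group, at each of their probe sets. Within a state, neighbouring groups in that order overlapped for these genes, except that at the Il2ra probe set 1420691_at the activated 0.5 µM group lay above the next group. The Il21r order differed: activated 0.5 µM (1368 ± 197) was followed by activated 0.25 µM (1289 ± 82.2), resting 0.5 µM (1194 ± 259), resting 0.25 µM (993 ± 267), activated DMSO (957 ± 103), activated Control-768 (916 ± 181), resting Control-768 (714 ± 112) and resting DMSO (681 ± 84.6; SD, n = 3 each). All neighbours in that order overlapped. For Il2rb the resting 0.5 µM group was the highest of the 8 (2110 ± 656), followed by activated Control-768 (1851 ± 315), and the resting DMSO group was the lowest (1160 ± 145).

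Genes of the same pathway were followed as 4 lists, each gene by its brightest probe set. Among 8 other cytokine and receptor genes of the common gamma chain family, restimulation called 0 with 0.25 µM I-BET-762, Control-768 and DMSO. Several of these genes were dim in every group, so changes in them could have been missed. Group means were 5.73 to 15.5 for Il7, 11.6 to 17.5 for Il9, 16.5 to 33.5 for Il15 and 3.60 to 17.1 for Il9r. With 0.5 µM it called 2 higher: Il4, the Th2 cytokine, by 2.10 ± 0.63 (limma adjusted p = 0.0246) and Il15ra, the IL-15 binding chain, by 1.09 ± 0.36 (limma adjusted p = 0.0417). Their means were higher in activated cells with every compound. Activated and resting Il4 averaged 136 ± 59.5 and 17.6 ± 1.41 with 0.5 µM (SD, n = 3 each). The means were 205 ± 234 and 35.3 ± 9.99 with 0.25 µM, and 105 ± 113 and 36.2 ± 9.31 with Control-768. The Il4 arrays of the 2 states overlapped with Control-768, where the lowest activated array had 30.9 and the highest resting array 46.5. Il15ra averaged 305 and 131, 278 and 155, and 262 and 144 in the same order. No interaction between state and dose was called for these 8 genes. Over all genes 21.7%, 12.7%, 18.3% and 19.1% were called with 0.5 µM, 0.25 µM, Control-768 and DMSO. Of 10 measured genes of other JAKs, STATs and phosphatases, 1 rose with each compound, and 3 fell with 0.5 µM I-BET-762, 1 with 0.25 µM, 2 with Control-768 and 1 with DMSO. Jak2 rose with every compound (1.70 ± 0.29 with Control-768, limma adjusted p = 0.000549) and Ptpn6, the phosphatase SHP-1, fell by 0.72 ± 0.14 with Control-768 (limma adjusted p = 0.00162) and with the other compounds as well. Jak1 and Jak3, the kinases of the IL-2 receptor, were not called.

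Of 13 targets of STAT5 or IL-2 signalling, 5 rose and 2 fell on restimulation with 0.5 µM I-BET-762, 3 rose and 1 fell with 0.25 µM, and 4 rose and 2 fell with Control-768 and likewise with DMSO. Over all genes, 9.89%, 6.25%, 8.1% and 8.37% were called higher with 0.5 µM, 0.25 µM, Control-768 and DMSO. The shares called lower were 11.8%, 6.49%, 10.2% and 10.7%. Bcl2l1, which encodes the survival protein BCL-XL, averaged 4524 ± 1077 in activated and 1209 ± 479 in resting cells with 0.5 µM I-BET-762 and 4261 ± 440 in activated and 1263 ± 158 in resting cells with Control-768 (SD, n = 3 each), and rose by 1.95 ± 0.25 and 1.74 ± 0.25. Ccnd2, cyclin D2, rose by 1.32 ± 0.24 with 0.5 µM I-BET-762 and 1.47 ± 0.24 with Control-768. Pim2, a survival kinase, rose with every compound, by 1.25 ± 0.22 with 0.5 µM I-BET-762 and 0.75 ± 0.22 with Control-768. These named genes all rose, while the counts above include genes that fell. Socs3, from the same list, had lower means in activated cells. It averaged 1370 ± 162 against 2586 ± 366 in resting cells with 0.5 µM I-BET-762. With Control-768 it averaged 1104 ± 362 against 1302 ± 53.1 (SD, n = 3 each). The list's median difference was 0.62, 0.36, 0.45 and 0.48 with 0.5 µM, 0.25 µM, Control-768 and DMSO, beside -0.03, -0.02, -0.03 and -0.03 over all genes. With I-BET-762 against controls, 0 of the 13 targets, 0 of the 10 JAK, STAT and phosphatase genes and 0 of the 8 gamma chain family genes were called in either state, at either dose or with doses and controls pooled. Of those 8 genes, Il7, Il9, Il15 and Il9r were dim in every group. The share of all genes called in those comparisons was 0.632% at 0.5 µM, 0.0495% at 0.25 µM and 0.962% pooled in activated cells, and 1.16%, 0.055% and 1.52% in resting cells.

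Among 19 measured transcription factors known to act on Il2 or Il21, restimulation called 3 higher and 2 lower with 0.5 µM I-BET-762, and 6 higher and 1 lower with each of 0.25 µM I-BET-762, Control-768 and DMSO. Of all genes, 9.89%, 6.25%, 8.1% and 8.37% were called higher and 11.8%, 6.49%, 10.2% and 10.7% lower with 0.5 µM, 0.25 µM, Control-768 and DMSO. With Control-768, Batf, an AP-1 family factor, rose by 2.08 ± 0.20 and Egr2 by 2.95 ± 0.51, and Nfatc3 fell by 0.48 ± 0.11. Maf was the factor called with I-BET-762 against Control-768. It is known to promote Il21 in follicular helper and Th17 cells. Maf averaged 615 ± 98.3 in activated cells with 0.5 µM I-BET-762 and 4025 ± 149 with Control-768 (SD, n = 3 each), a difference of -2.69 ± 0.38 (limma adjusted p = 0.000824), and in resting cells 1071 ± 803 with 0.5 µM and 3796 ± 1499 with Control-768, a difference of -1.99 ± 0.38 (limma adjusted p = 0.0112). With both doses against both controls in resting cells, 2 factors were higher: Batf, by 0.62 ± 0.14 (limma adjusted p = 0.0303), and Egr2, by 1.62 ± 0.36 (limma adjusted p = 0.031). Maf was lower there too, by a difference of -1.67 ± 0.27 (limma adjusted p = 0.00176). Of all genes, 0.495% were called higher and 1.02% lower in that comparison.

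Likeness to Il2 and Il21 was described by Pearson's r between log2 values, each other gene by its brightest probe set, among genes with a mean intensity of at least 64 and a range of at least 1 log2. Over the 8 group means, which mainly separate activated from resting cells, Nfkb2 (r = 0.999), Armc6, Ehd1, Polr3d and Yrdc lay closest to Il2 among 2296 genes. Of the members, Stat5a had r = 0.998 and Il2ra 0.995 with Il2, against 0.47 for Il2rb and 0.52 for Il21r. Sowahc (r = 0.996), Mfhas1, Slfn10-ps, Timp1 and Eif6 lay closest to Il21 at its brighter probe set. Over the 12 activated arrays, where array numbers differ more than compounds for Il2, Gramd1b (r = 0.964), Nr4a3, Plk3, Gfod1 and Egr2 lay closest to Il2 among 1973 genes, and Spin4 (r = 0.966), Egr3, Tm6sf1, Ccr1 and Atrnl1 lay closest to the brighter Il21 probe set. There Il2 and the brighter Il21 probe set had r = 0.36 with each other, and Il21r had -0.76 with that Il21 probe set. Il2ra at 1420692_at had r = -0.85 with Il2, but the 2 Il2ra probe sets had r = 0.41 with each other over these arrays. Activated arrays numbered 3 stood at 4609 to 5471 at 1420692_at, against 5875 to 6990 on numbers 1 and 2. At 1420691_at they stood at 4079 to 5434, against 4316 to 4885. The relation of Il2ra to Il2 as a gene therefore cannot be told from 1 probe set. The dimmer Il21 probe set had r = -0.60 with the brighter one over these arrays. The relation of Il21r to Il21 as a gene therefore cannot be told from these values. These points share arrays and replicate numbers and are not independent.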

How the data were processed

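RNA of 24 cultures was measured on Affymetrix mouse arrays. Per the labels' protocols, RNA was purified on RNeasy columns, amplified in rounds of MessageAmp and labelled with an Enzo BioArray kit. The authors deposited linear intensity values, 1 per probe set and array; the sources used here do not name the summarisation or normalisation, so none was added, and array medians differed little (37.4 to 44.4). Arrays were grouped by the labels into 8 groups of 3 biological replicates, whose number limits the precision. Of 45101 probe sets, 64 controls were left out. Of the 45037 tested, 34945 carry 1 gene symbol, 932 several and 9160 none in the platform annotation; 18193 genes were each read at their brightest probe set by mean intensity. Log2(intensity + 16) was fitted with limma 3.58.1 in R 4.3.3 as 8 group means (16 residual degrees of freedom) with 16 two-sided comparisons, each adjusted by Benjamini-Hochberg over 45037 probe sets, and tested on simulated data. All probe sets of the members were named, whatever their values; from each list, members that passed the test were named, smallest adjusted p first. The members and lists were chosen with earlier results of these data known. Deviations of same-numbered arrays from their group means correlated at 0.155 to 0.564 within activated and 0.197 to 0.699 within resting cells, in every pair over 0.1. The numbers were therefore taken to pair arrays within a state. Between the states, same-numbered arrays correlated at -0.05 to 0.186 and differently numbered ones at -0.175 to 0.117 (median -0.032). Whether the numbers also pair arrays across states was not tested. Alternatives were constants of 1 and 64, quantile normalisation, a filter on dim probe sets (an intensity of at least 50 on at least 3 arrays), 1 probe set per gene, no _s_at or _x_at probe sets, only the compared groups, replicate blocks, no arrays numbered 3, and each array left out in turn. Promoter sequences are RefSeq's (GRCm38.p6), found for 7 of the 8 members. Python 3.11.15, pandas 2.3.3 and matplotlib 3.10.9 were used for motifs and plots.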

Additional observations from a re-analysis of the deposited data

How the results depend on the processing

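Counts here are of the 7 genes at their brightest probe set. Restimulation called 4 genes with 0.5 µM I-BET-762, 4 with 0.25 µM, 5 with Control-768 and 5 with DMSO, and leaving out 1 array gave 3 to 4, 3 to 4, 4 to 5 and 3 to 4. Over all genes, with no array left out, restimulation called 21.7%, 12.7%, 18.3% and 19.1% in either direction. For I-BET-762 against Control-768 at 0.5 µM in activated cells, and for both doses against both controls there, 0 genes were called, against 1 each with the replicate block within a state and with the block over both states. At 0.5 µM in resting cells 0 were called, against 1 with quantile normalisation and 2 with either block. The block within each state also raised the share of all probe sets called. At 0.5 µM it rose from 0.424% to 1.81% in activated and from 0.753% to 2.98% in resting cells. For both doses against both controls it rose from 0.626% to 2.3% in activated and from 0.999% to 3.08% in resting cells. Shares under the other alternatives are not given here. With both doses against both controls in resting cells 1 gene was called (Il21r), against 2 with the block within each state and 0 with a constant of 1 (limma adjusted p = 0.0516), with only the compared groups (0.128) and without the arrays numbered 3 (0.0575); leaving out 1 array gave 0 to 1. The block over both states treats same-numbered arrays as paired across states, which was not established. It also called restimulation for Il2ra 1420692_at with every compound (limma adjusted p = 0.00219 to 0.00724). Il21r was called with it for 0.25 µM I-BET-762, Control-768 and DMSO (limma adjusted p = 0.0133, 0.0245 and 0.00271). Stat5b 1422102_a_at was called with it for 0.25 µM and Control-768 (limma adjusted p = 0.00161 and 0.00315). The cause of these changes was not tested. No called result changed sign under these alternatives. Of 3208 alternative values of single probe sets, 488 were of probe sets called in the main setting, and 443 of those kept call and direction; 241 values changed sign with neither setting called. Only 3 arrays per group and the low signal of resting Il2 and of the dimmer Il21 probe set limit what could be detected.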
